A study of Mus musculus with 15 samples.

Results

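Left-ventricular heart muscle cells were profiled 12 days after whole-body exposure to protons and set against the same cells from sham-exposed mice. The arrays were chosen by their titles: 2 of the 15 arrays of the series were titled 12 days after proton exposure and 3 were titled sham. The day 12 arrays came from male C57Bl/6NT mice of 8 to 9 months that had received 90 cGy of 1 GeV protons at 0.17 Gy per minute. The sham arrays came from male C57Bl/6NT mice of 8 to 9 months, 2 of them collected at day 1 and 1 at day 3 after sham exposure. No sham sample of day 12 was among the arrays, so the exposure, the time since the procedure and anything that went with the day of collection cannot be told apart. The remaining 10 arrays were of days 1 (2), 3 (3), 5 (3) and 26 (2) after the same proton dose, and served only to ask where day 12 differed from the other proton days. The titles give days 1, 3, 5, 12 and 26, whereas the design text names days 1, 3, 7, 14 and 28. Days below follow the titles.

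The cells had been released with collagenase and carried through stepwise calcium, which per the labels gave more than 90% calcium-tolerant cardiomyocytes and left room for some inflammatory or endothelial cells. All 16 cardiomyocyte markers were above the signal filter, and their mean log2 signal was 11.65 and 11.74 in the day 12 samples, against 11.73, 11.76 and 11.77 in the sham samples. Genes of other heart cells were also measured, and the day 12 replicates differed in them, as described below. In such bulk samples, fewer cells of a type and less RNA per cell cannot be told apart. Nothing in the labels states that arrays within a group are from separate mice, and all p-values therefore measure only the spread between these samples. After the near-identical replicates 1 and 2 of proton day 5 had been averaged, 14 samples in 6 groups entered the fit. The SD of the differences over the genes tested was 0.422 between the day 12 replicates and 0.247 to 0.323 between the sham samples.

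As background, proteins that are secreted or placed in membranes fold in the endoplasmic reticulum (ER), where chaperones and disulfide isomerases assist them. An excess of unfolded protein there is sensed by 3 membrane proteins, IRE1, PERK and ATF6, whose signals raise chaperone genes. The circadian clock of the heart is a loop in which BMAL1 (Arntl) and CLOCK drive the genes of their own repressors and of output factors such as Dbp over each day. Small nucleolar and Cajal body RNAs guide the chemical modification of ribosomal and spliceosomal RNAs, and most lie inside introns of other genes.

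Of 12102 genes tested, none differed between day 12 and sham at a limma adjusted p under 0.05, and the lowest adjusted p was 0.136. At an unadjusted p under 0.05, 969 genes differed (8.01% of those tested), where 605 would be reached with no difference at all. Of these, 410 were higher at day 12 (3.39%) and 559 were lower (4.62%). The balance moved with the scaling of the arrays: 410 of 969 such genes were higher (42.3%) on the deposited values, 174 of 756 (23.02%) with equal array medians and 321 of 999 (32.1%) after quantile normalization. Both day 12 samples lay above all 3 sham samples in 1200 genes (9.92%) and below all of them in 1354 (11.2%). The median log2 difference over all genes was 0.01. Without day 12 replicate 2, 352 genes reached the unadjusted threshold, and without replicate 1 the number was 2622. The genes below are therefore described by their values in each sample, and none of them passed the adjusted threshold on these 14 samples. The 10 genes named for the smallest p in each direction were taken only from genes whose day 12 samples both lay outside the sham range. For those genes the lack of overlap followed from the choice and is a description only.

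The 10 genes with an adjusted p under 0.25 held, on the higher side, Scarna13, Sdf2l1, Ces1d, Snora16a and Hsp90b1, and on the lower side, Car14, Dbp, Ciart, Glrx and 1700025G04Rik. They thus include 2 small RNAs, 2 ER chaperone genes and 2 clock output genes, and each of these groups is taken up in turn.

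ER chaperones and cofactors were higher at day 12 in most members. Of the 26 genes listed, 25 passed the signal filter, and 23 of these had a log2 difference above 0 (51.9% of all genes did). The median of the 25 was 0.33, against 0.01 over all genes. At an unadjusted limma p under 0.05, 14 of the 25 were higher and none was lower, where 3.39% of all genes were higher. Both day 12 samples lay above all sham samples in 15 (9.92% of all genes did). The median over the list was 0.21 in replicate 1 and 0.41 in replicate 2. Without replicate 2, 7 of the 25 were higher at an unadjusted p under 0.05, where 170 of all genes were higher, and without replicate 1, 16 were, where 1368 of all genes were higher.

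Sdf2l1, a partner of the main ER chaperone that slows the aggregation of its clients, had log2 signals of 7.14 and 7.498 in the day 12 samples, against 6.58, 6.45 and 6.24 in the sham samples. Both day 12 samples stood above every sham sample. The difference was 0.89 ± 0.16 (SE), or 1.86-fold (limma adjusted p = 0.225). Hsp90b1 (GRP94), the HSP90 chaperone of the ER, had 9.79 and 10.15 at day 12, against 9.21, 9.53 and 9.15 in sham, a difference of 0.68 ± 0.13 or 1.60-fold (limma adjusted p = 0.225). Hyou1, a large HSP70 relative that exchanges nucleotide on the main chaperone, had 7.41 and 7.84 at day 12, against 6.98, 7.09 and 6.62 in sham. The 2 groups did not overlap in either gene, and replicate 2 was the higher one in both.

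Hspa5 (BiP), the main ER chaperone itself, had 10.42 and 10.65 at day 12, against 10.18, 10.28 and 10.04 in sham, a difference of 0.37 ± 0.09 or 1.29-fold (limma adjusted p = 0.506). Creld2, a calcium-binding ER protein with disulfide isomerase activity, had 7.63 and 7.86 at day 12, against 7.19, 7.42 and 7.09 in sham. Dnajb11, a co-chaperone of BiP, had 7.08 and 7.04 at day 12, against 6.84, 6.76 and 6.80 in sham. In all 3 genes the day 12 samples lay above the sham samples. Dnajc3, a BiP co-chaperone that also restrains PERK, had 7.74 and 8.18 at day 12, against 7.49, 7.59 and 7.53 in sham. Manf, a secreted and ER-resident survival factor, had 7.69 and 7.85 at day 12, against 7.59, 7.58 and 7.30 in sham, again without overlap.

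Dnajb9, a J protein induced through IRE1, overlapped: it had 8.88 and 9.15 at day 12, against 8.94, 8.81 and 8.58 in sham. Named after their values were seen, the only 2 members with a difference below 0 were Cnpy2 (-0.08 ± 0.12) and Fkbp14 (-0.05 ± 0.15), and in both the groups overlapped. The collagen chaperone Serpinh1, also named after its values were seen, had 9.10 and 9.73 at day 12, against 9.18, 8.78 and 9.54 in sham, so it was high in replicate 2 only.

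**Figure D1:**
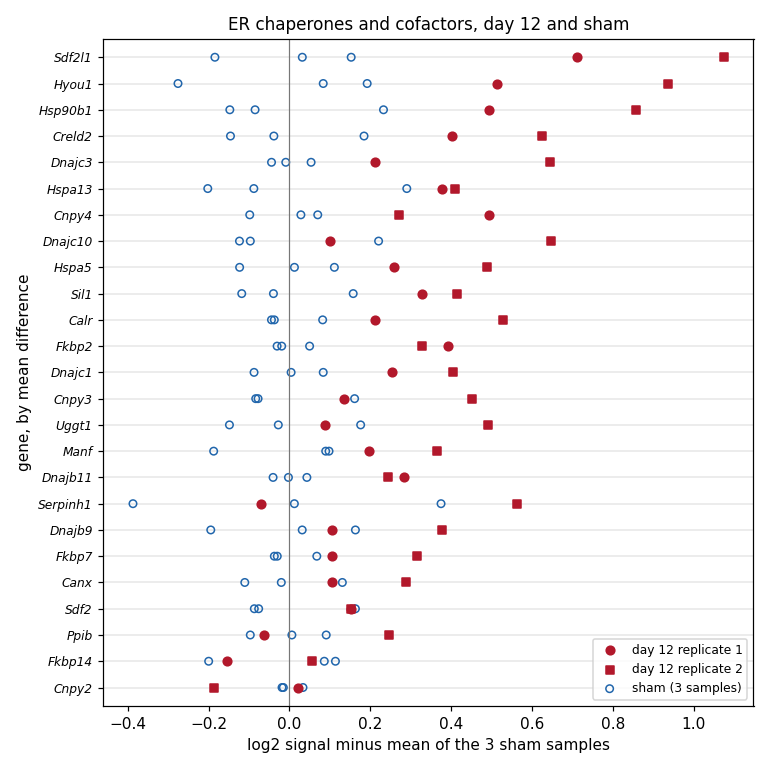
Each row is 1 of the 25 tested ER chaperone and cofactor genes, ordered by its mean difference, and the horizontal axis is the log2 signal minus the mean of the 3 sham samples. Filled red points are the 2 day 12 samples and open blue points the 3 sham samples; the red points lie to the right of all blue points in 15 rows, and the median row stands at 0.33.

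The promoters of the chaperone genes are shown because a known response element, ERSE, links many of them to ATF6 and XBP1. ERSE was searched as CCAAT and CCACG with 9 free bases between them and ERSE-II as ATTGG and CCACG with 1 free base between them, on both strands, in RefSeq windows of GRCm38.p6 from 250 bases before to 50 bases after each start site. Both share the letters CCACG, which on the other strand also occur in the CRE-like element TGACGTGG and can overlap an E-box. Of 32851 windows, 39 held ERSE (0.119%) and 12 held ERSE-II (0.0365%). Of the 21 tested chaperone genes with a window, 6 held ERSE (Hspa5, Hsp90b1, Dnajc3, Creld2, Calr and Canx) and 1 held ERSE-II (Dnajb11). All 7 were among the 14 genes of the list that were higher at day 12 at an unadjusted limma p under 0.05. As the element was already linked to many of these genes, this match is no test of what raised them. Of the 16 disulfide isomerase and oxidase genes with a window, 2 held ERSE (Pdia6 and Ero1b). No exact match was found in the window of Sdf2l1, which says only that these letters are not in it. In the windows below, capitals mark ERSE: at position -65 from the start site in Hspa5 (chr2:34771840-34772139, plus strand), from -212 and from -107 in Hsp90b1 (chr10:86705395-86705694, minus strand) and from -126 in Creld2 (chr15:88819396-88819695, plus strand).
Hspa5: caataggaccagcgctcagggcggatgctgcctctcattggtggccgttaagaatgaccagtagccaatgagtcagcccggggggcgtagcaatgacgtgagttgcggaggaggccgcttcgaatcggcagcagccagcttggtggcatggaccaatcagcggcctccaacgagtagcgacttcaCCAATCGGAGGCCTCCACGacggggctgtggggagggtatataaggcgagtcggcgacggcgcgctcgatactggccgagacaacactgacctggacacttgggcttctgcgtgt
Hsp90b1: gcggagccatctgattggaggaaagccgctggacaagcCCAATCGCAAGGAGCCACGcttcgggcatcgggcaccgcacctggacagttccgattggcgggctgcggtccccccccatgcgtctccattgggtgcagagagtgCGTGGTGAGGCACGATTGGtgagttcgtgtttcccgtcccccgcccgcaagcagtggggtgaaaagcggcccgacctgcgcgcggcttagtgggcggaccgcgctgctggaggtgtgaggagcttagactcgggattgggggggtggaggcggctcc
Creld2: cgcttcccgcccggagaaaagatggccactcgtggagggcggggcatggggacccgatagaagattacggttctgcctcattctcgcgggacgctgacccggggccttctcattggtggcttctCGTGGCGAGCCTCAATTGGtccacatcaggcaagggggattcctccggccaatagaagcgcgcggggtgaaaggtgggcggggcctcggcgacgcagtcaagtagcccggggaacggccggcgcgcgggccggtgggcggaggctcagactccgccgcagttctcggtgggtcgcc

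The disulfide isomerases and oxidases, which make and rearrange disulfide bonds in the ER, followed the chaperones only in part. All 18 listed genes were tested, their median was 0.13, and 5 were higher at an unadjusted limma p under 0.05 (3.39% of all genes were), with none lower. Pdia4 had 7.95 and 8.63 at day 12, against 7.53, 7.61 and 7.29 in sham, a difference of 0.81 ± 0.24 or 1.76-fold. Its other probe set was dim and overlapped, with 4.71 and 4.63 at day 12, against 3.70, 4.20 and 5.00 in sham. Pdia3, the isomerase that works with calnexin and calreticulin, had 9.19 and 9.78 at day 12, against 8.95, 9.04 and 8.77 in sham. Erp44, a thiol-dependent retention factor, and Pdia6 were higher by 0.26 ± 0.10 and 0.48 ± 0.18. In these 4 genes the day 12 samples lay above the sham samples on the brighter probe set. The list median was 0.03 in replicate 1 and 0.31 in replicate 2, and without replicate 2 none of the 18 reached an unadjusted p under 0.05.

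The translocon and glycosylation genes, which bring new proteins into the ER and attach sugars, had a median of 0.08 over 31 tested of 33 listed, with 6 higher at an unadjusted p under 0.05 (3.39% of all genes were) and none lower. The list median was 0.07 in replicate 1 and 0.16 in replicate 2. With the day 1 sham samples alone, 2 of the 31 were higher at an unadjusted p under 0.05, as were 323 of all genes. Ddost, a subunit of the oligosaccharyltransferase, had 9.52 and 9.77 at day 12, against 9.26, 9.31 and 9.20 in sham. The translocating chain-associated protein Tram1 had 8.22 and 8.73 at day 12, against 8.00, 8.13 and 7.90 in sham. Neither overlapped. Rpn2 and Rpn1, both oligosaccharyltransferase subunits, were higher by 0.36 ± 0.13 and 0.43 ± 0.16, and Rpn1 overlapped with sham.

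ER-associated degradation, which returns misfolded proteins to the proteasome, had a median of 0.03 over 28 tested of 29 listed, with 4 higher at an unadjusted p under 0.05 (3.39% of all genes were) and none lower. The list median was 0.02 in replicate 1 and 0.10 in replicate 2. With the marker score described below, 2 of the 28 were higher, as were 461 of all genes. With the day 1 sham samples alone, 4 were higher, as were 323 of all genes. The 4 of the main fit were Selenos, a selenoprotein of the retrotranslocation complex (0.55 ± 0.14), Sel1l (0.39 ± 0.13), its ubiquitin ligase partner Syvn1 (0.27 ± 0.11) and Fam8a1 (0.21 ± 0.09). Selenos had 6.56 and 6.27 at day 12, against 6.12, 5.71 and 5.77 in sham, and the groups did not overlap in any of the 4. Herpud1, another member of that complex, had 9.97 and 10.10 at day 12, against 9.63, 10.08 and 9.68 in sham, and overlapped.

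Among the sensors and the targets of PERK, 26 of 31 listed genes were tested, with a median of 0.12, 6 higher and 1 lower at an unadjusted p under 0.05 (3.39% and 4.62% of all genes). The list median was 0.02 in replicate 1 and 0.21 in replicate 2. Xbp1, whose transcript IRE1 splices, had 8.95 and 9.04 at day 12, against 8.64, 8.63 and 8.33 in sham, a difference of 0.46 ± 0.11 or 1.37-fold (limma adjusted p = 0.505). Vldlr, a lipoprotein receptor, had 9.78 and 9.94 at day 12, against 9.41, 9.64 and 9.39 in sham. Creb3l1, a membrane-bound factor for secretory genes, had 5.64 and 6.88 at day 12, against 5.25, 5.06 and 4.79 in sham. All 3 stood above sham in both replicates, and Creb3l1 mainly in replicate 2.

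The genes downstream of PERK were split. Ddit4, an inhibitor of mTORC1 that also answers glucocorticoids, had 7.33 and 7.38 at day 12, against 7.75, 8.25 and 8.20 in sham, a difference of -0.71 ± 0.23. Atf4, the transcription factor translated upon PERK activity, had 7.61 and 7.57 at day 12, and Ddit3 (CHOP), its pro-apoptotic target, had 6.69 and 6.54. In sham, Atf4 had 7.86, 7.496 and 7.76 and Ddit3 had 6.93, 6.18 and 7.25, and both genes overlapped. Sesn2, a stress-induced inhibitor of mTORC1 named after its values were seen, had 5.61 and 5.48 at day 12, against 5.23, 4.76 and 5.34 in sham, and stood above it. Eif2ak3, which encodes PERK itself and is named after its values were seen, had 5.67 and 6.24 at day 12, against 5.20, 5.45 and 5.46 in sham.

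The other proton days are set beside day 12 for the chaperone list, all minus the same 3 sham samples, which they share. Days 1 and 3 each had a list median of 0.18 and day 5 one of 0.28, followed by 0.33 at day 12 and 0.42 at day 26. Against the mean of the other proton days, which uses no sham sample, the day 12 median was 0.05, and 18 of 25 genes had a difference above 0 (47.7% of all genes did). Of the 25, 1 was higher at an unadjusted limma p under 0.05 (0.521% of all genes). That gene, Sdf2l1, was higher by 0.35 ± 0.14 than the mean of the other proton days (limma adjusted p = 1.00), and its highest values of all arrays were 7.80 and 7.60 at day 26. Against sham, day 12 had the lowest median of all proton days in the other ER lists. For days 1, 3, 5, 12 and 26 the isomerase medians were 0.19, 0.14, 0.17, 0.13 and 0.24. The translocon medians were 0.126, 0.081, 0.143, 0.075 and 0.170. Those of ER-associated degradation were 0.060, 0.063, 0.047, 0.035 and 0.095. Those of the sensors and PERK targets were 0.15, 0.21, 0.15, 0.12 and 0.26.

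Most clock output and repressor genes had lower values at day 12. All 12 listed genes were tested, 10 had a log2 difference below 0 (48.1% of all genes did), and the median was -0.25. At an unadjusted limma p under 0.05, 4 were lower and none was higher, where 4.62% of all genes were lower. The median was -0.33 in replicate 1 and -0.16 in replicate 2, and each of the 4 lay below all sham samples in both replicates. Without replicate 1, 2 of the 12 were lower at an unadjusted p under 0.05, where 1254 of all genes were, and without replicate 2 the number was 4, where 182 of all genes were. The time of day of collection is not given in the sources used here.

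Dbp, a PAR bZIP output factor of the clock, had 8.16 and 8.31 at day 12, against 9.01, 8.88 and 8.90 in sham. Both day 12 samples lay below every sham sample. The difference was -0.70 ± 0.12 (SE), or 1.62-fold lower (limma adjusted p = 0.225). Ciart (CHRONO), a repressor of BMAL1 and CLOCK, had 5.27 and 4.52 at day 12, against 6.63, 5.99 and 6.67 in sham, a difference of -1.54 ± 0.28 or 2.90-fold lower (limma adjusted p = 0.225). Its other probe set ran the same way, with 4.66 and 4.09 at day 12, against 5.57, 5.56 and 5.70 in sham, although these levels surround the filter value of 5.00.

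Bhlhe41 (DEC2), another repressor, had 6.27 and 6.18 at day 12, against 6.67, 6.45 and 6.77 in sham, and Nr1d1 (REV-ERB alpha), which represses Arntl, had 8.98 and 9.09 at day 12, against 9.30, 9.39 and 9.14 in sham. Neither overlapped. The period genes overlapped with sham: Per1 had 5.96 and 7.08 at day 12, against 6.87, 7.14 and 6.75 in sham, Per2 had 5.32 and 5.69, against 5.63, 6.25 and 5.63, and Per3 had 5.25 and 5.48, against 5.40, 5.56 and 5.90. The PAR bZIP relatives of Dbp parted ways, with Tef at -0.18 ± 0.12 and Hlf at 0.14 ± 0.16, and both overlapped with sham.

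On the activator side, Arntl stood apart. It had 7.27 and 7.16 at day 12, against 6.58, 6.76 and 6.75 in sham, a difference of 0.52 ± 0.13 or 1.43-fold (limma adjusted p = 0.506), with no overlap. Clock, its partner, had 8.22 and 8.45 at day 12, against 8.26, 8.34 and 8.02 in sham, and overlapped. Nfil3, a repressor of the genes that Dbp activates, had 6.69 and 6.39 at day 12, against 6.59, 6.21 and 6.34 in sham, and Cry1 had 5.41 and 4.85, against 5.21, 5.20 and 5.25. Of 7 listed activators and night-phase genes, 5 were tested, and Arntl was the only one at an unadjusted p under 0.05.

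Day 12 was also set against the mean of the other proton days, a comparison that uses no sham sample. Of 12102 genes, 239 differed at an unadjusted limma p under 0.05 (1.97%), 63 higher (0.521%) and 176 lower (1.45%), and none passed the adjusted threshold (the lowest adjusted p was 0.9998). Of the 12 clock repressor and output genes, 10 had a difference below 0 (52.3% of all genes did), and 6 were lower against the other proton days at an unadjusted p under 0.05: Dbp, Ciart, Per2, Nr1d1, Tef and Per3. Dbp was lower than their mean by -0.54 ± 0.10 and Ciart by -1.10 ± 0.24, Per2 had a difference of -0.63 ± 0.19 and Arntl one of 0.51 ± 0.11. Arntl and Dbp had the smallest p of all genes in their direction. Day 26 lay near day 12 in part: Dbp had 8.47 and 8.29, Ciart 5.38 and 5.21, and Arntl 7.12 and 6.96 at day 26. At day 5, Dbp had 9.20 and 9.04, Ciart 6.91 and 6.30, and Arntl 6.32 and 6.08.

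**Figure D2:**
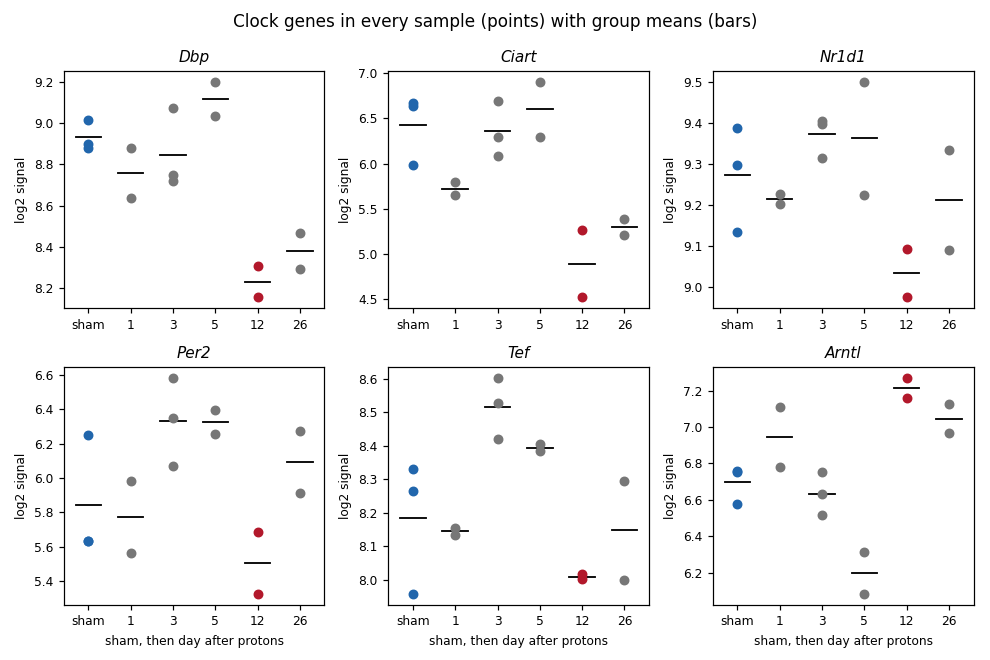
The log2 signal of 6 clock genes is plotted for every sample, with the sham samples in blue at the left and then days 1, 3, 5, 12 (red) and 26 after protons. Points are samples and bars are group means; at day 12 Dbp (8.16 and 8.31) and Ciart (5.27 and 4.52) lie below all sham points, and Arntl (7.27 and 7.16) lies above them.

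The promoter windows of 2 of these genes are shown because they carry the clock's own elements. An E-box (CACGTG, bound by BMAL1 and CLOCK) was in 2349 of 32851 windows (7.15%) and in 4 of the 10 repressor and output genes with a window, Per1, Ciart, Tef and Bhlhe41. A D-box (TTATGTAA, bound by Dbp and its relatives and opposed by Nfil3) was in 308 windows (0.938%) and in 1 of the 10, Per3. Both strands were searched, and the window of Dbp held neither, which says nothing of sites elsewhere in the gene. Capitals mark the 3 E-boxes of Ciart, from -116 to -44 (chr3:95882179-95882478, minus strand), and the 2 D-boxes of Per3, from -205 and from -158 (chr4:151044616-151044915, minus strand).
Ciart: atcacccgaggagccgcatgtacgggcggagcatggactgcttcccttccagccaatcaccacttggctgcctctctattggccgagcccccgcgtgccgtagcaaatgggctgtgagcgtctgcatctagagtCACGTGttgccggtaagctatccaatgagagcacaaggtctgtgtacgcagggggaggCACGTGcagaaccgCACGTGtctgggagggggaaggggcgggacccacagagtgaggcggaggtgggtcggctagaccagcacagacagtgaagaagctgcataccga
Per3: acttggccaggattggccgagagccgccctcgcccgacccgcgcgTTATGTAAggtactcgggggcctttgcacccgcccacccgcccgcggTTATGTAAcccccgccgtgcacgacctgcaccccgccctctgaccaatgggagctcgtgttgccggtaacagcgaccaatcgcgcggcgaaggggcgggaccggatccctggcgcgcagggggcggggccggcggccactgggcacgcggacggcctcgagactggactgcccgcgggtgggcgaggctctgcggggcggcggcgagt

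Small nuclear and nucleolar RNAs were higher at day 12 as a group. Of 62 listed, 43 passed the filter, 42 of them had a difference above 0 (51.9% of all genes did), and the median was 0.39. At an unadjusted limma p under 0.05, 20 were higher and none was lower, where 3.39% of all genes were higher, and 25 lay above all sham samples in both replicates (9.92% of all genes did). The median was 0.43 in replicate 1 and 0.34 in replicate 2, so here replicate 2 was not the higher one. Sham replicate 3 was the lowest of the sham samples, with a mean over the list of 7.07, against 7.39 and 7.38 in the others and 7.77 and 7.67 at day 12. With the day 1 sham samples alone, the median was 0.29 and 12 of the 43 were higher at an unadjusted p under 0.05, as were 323 of all genes.

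Scarna13, a Cajal body RNA on chromosome 12 (105031075 to 105031349, GRCm38.p6), had 9.06 and 9.19 at day 12, against 7.59, 8.27 and 7.54 in sham. The difference was 1.33 ± 0.19 (SE), or 2.51-fold (limma adjusted p = 0.136), and both day 12 samples lay above every sham sample. Snora16a, an H/ACA box RNA, had 7.70 and 7.42 at day 12, against 6.80, 6.63 and 6.24 in sham, a difference of 1.00 ± 0.19 or 2.01-fold (limma adjusted p = 0.225). Snord104, a C/D box RNA, had 10.52 and 10.35 at day 12, against 10.01, 9.83 and 9.82 in sham. Neither overlapped with sham.

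Snora3 had 9.92 and 9.13 at day 12, against 8.61, 8.50 and 8.24 in sham, and its other probe set had 9.44 and 8.98, against 8.50, 8.87 and 8.22. Snora73b had 7.68 and 7.28 at day 12, against 7.03, 6.92 and 6.38 in sham. Rnu12, the U12 RNA that serves the minor spliceosome, had 6.59 and 6.96 at day 12, against 6.38, 6.50 and 5.97 in sham. In each of the 3 the day 12 samples lay above the sham samples. The abundant polymerase III transcript Rn7sk, named after its values were seen, had 12.51 and 12.58 at day 12, against 12.54, 12.58 and 12.48 in sham, and overlapped.

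Both families of small nucleolar RNAs took part. The 18 H/ACA box RNAs had a median of 0.39, with 7 higher at an unadjusted p under 0.05 (3.39% of all genes were). The 20 C/D box RNAs had a median of 0.42, with 11 higher. Of the 43, 37 lay inside a longer named gene, on either strand. The 17 such genes that were tested had a median of -0.02, between -0.17 and 0.45. Of these, 2 were higher at an unadjusted p under 0.05 (3.39% of all genes were). They were Gas5 (0.45 ± 0.14) and the ribosomal protein gene Rpl10 (0.16 ± 0.06), both named after their values were seen. The genes around Scarna13 (Snhg10), Snora16a (Snhg12) and Snora73b (Snhg3) were not among the 17, so the median does not cover them. Rpl27a, which holds Snora3 and is also named after its values were seen, had a difference of -0.04 ± 0.09. Whether a probe set read the mature small RNA or the transcript around it was not tested. Beside the same 3 sham samples, day 1 had a list median of 0.18, day 3 one of 0.01 and day 5 one of 0.54, followed by 0.39 at day 12 and 0.50 at day 26. Against the other proton days, the day 12 median was 0.10, with 1 of 43 lower and none higher at an unadjusted p under 0.05 (1.45% and 0.521% of all genes).

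**Figure D3:**
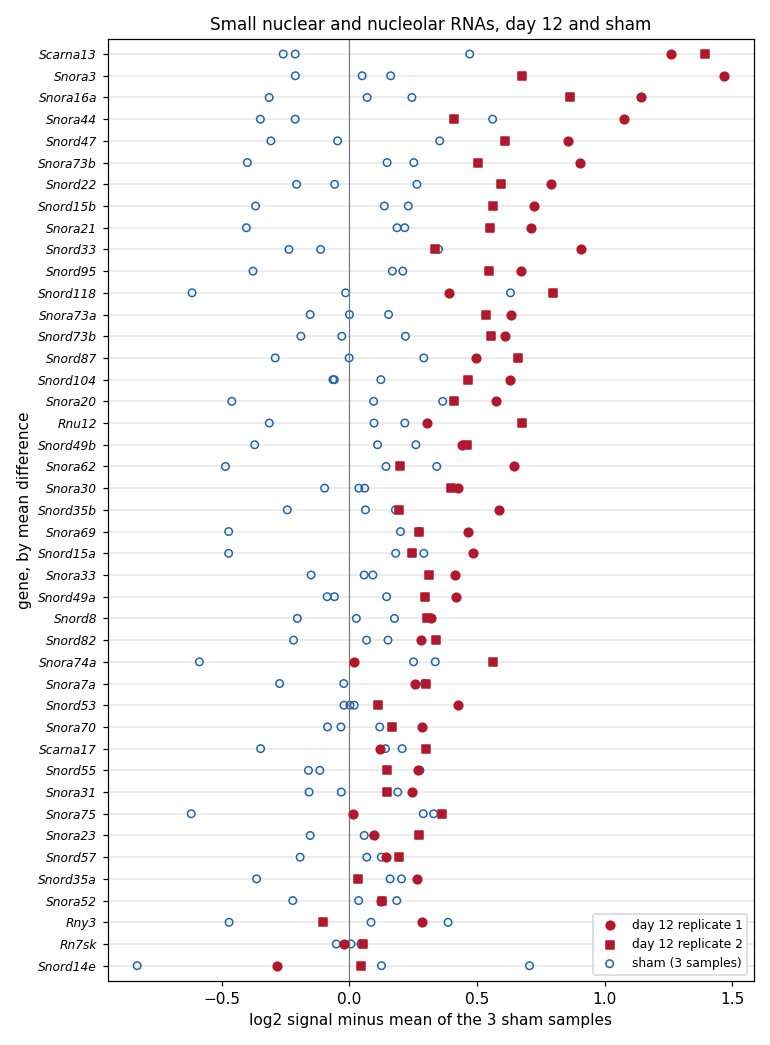
Each row is 1 of the 43 tested small nuclear and nucleolar RNAs, ordered by its mean difference, with the log2 signal minus the mean of the 3 sham samples on the horizontal axis. Filled red points are the 2 day 12 samples and open blue points the 3 sham samples; in 25 rows both red points lie to the right of all blue points, and Scarna13 heads the plot at a mean of 1.33.

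The gene with the smallest p among the lower ones was Car14, a membrane carbonic anhydrase that faces the outside of the cell. It had 9.49 and 9.40 at day 12, against 9.90, 9.89 and 10.03 in sham. The 2 groups did not overlap, and the difference was -0.50 ± 0.07 (SE), or 1.41-fold lower (limma adjusted p = 0.136). At day 26 it had 9.38 and 9.38, and over the other proton days it ran from 9.38 to 9.81. Car14 and Ciart are neighbours on chromosome 3 in GRCm38.p6, 15510 bases apart with 1 annotated gene, BC028528, between them. Whether the 2 genes share a control was not tested. Of 26 carbonic anhydrases and pH transporters, 18 were tested, their median was 0.03, and Car14 was the only one at an unadjusted p under 0.05. Car3, a muscle and fat isoform, had 6.97 and 9.39 at day 12, against 6.32, 7.00 and 6.18 in sham, and was high in replicate 2 only.

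The other genes with the smallest p among the lower ones had varied roles. Glrx, a cytosolic glutaredoxin, had 7.76 and 7.33 at day 12, against 8.30, 8.22 and 8.68 in sham, a difference of -0.85 ± 0.16 or 1.80-fold lower (limma adjusted p = 0.225). Supv3l1, the RNA helicase of the mitochondrial degradosome, had 7.36 and 7.20 at day 12, against 7.63, 7.87 and 7.79 in sham. Myl1, a myosin light chain of fast skeletal muscle, had 8.17 and 8.19 at day 12, against 8.88, 9.03 and 9.01 in sham, a difference of -0.80 ± 0.18 or 1.74-fold lower (limma adjusted p = 0.491). In all 3 the groups did not overlap, as the choice of these genes required. The remaining genes of the 10 lower ones were 1700025G04Rik (-0.54 ± 0.10, and -0.25 with overlap on its other probe set), the endocytic ATPase Ehd4 (-0.33 ± 0.07), the proteasome subunit Psmb6 (-0.35 ± 0.08) and the mitochondrial hydrolase Fahd1 (-0.61 ± 0.14).

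Among the higher genes outside the ER and small RNA groups, Ces1d, a carboxylesterase that hydrolyses triglycerides, had 9.41 and 9.56 at day 12, against 9.00, 9.05 and 8.76 in sham, a difference of 0.54 ± 0.10 or 1.46-fold (limma adjusted p = 0.225). Adam19, a membrane protease with a role in heart development, had 7.27 and 7.03 at day 12, against 6.57, 6.60 and 6.52 in sham, and Tmem109 differed by 0.38 ± 0.09. Igha, the constant region of immunoglobulin A, had 5.47 and 5.67 at day 12, against 3.71, 3.50 and 4.14 in sham, where all 3 values were below the filter level of 5.00. Jchain, which joins the chains of secreted immunoglobulin A and is named after its values were seen, had 6.15 and 6.55 at day 12, against 3.75, 4.95 and 3.64 in sham. The other probe set of Igha had 5.08 and 5.89 at day 12, against 3.69, 4.67 and 4.03 in sham. Igha and Jchain were above sham in both day 12 samples, and Jchain too was below the filter level in all sham samples. Ighm, the constant region of immunoglobulin M, overlapped on its brightest probe set. It had 5.54 and 5.98 at day 12, against 5.49, 5.89 and 5.40 in sham. On its other probe sets both day 12 samples stood above sham. Of 12 B and plasma cell markers, 7 were tested, with a mean log2 signal of 5.58 and 6.25 at day 12, against 5.11, 5.57 and 5.07 in sham, and the part of such cells in these values was not tested. In 2 of the 7 both day 12 samples lay above all sham samples (9.92% of all genes did).

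Genes of energy supply and contraction sat slightly lower. Glycolysis and glycogen genes had a median of -0.14 over 27 tested of 32 listed, with 7 lower and none higher at an unadjusted limma p under 0.05 (4.62% of all genes were lower). Ldha had 11.30 and 11.14 at day 12, against 11.55, 11.37 and 11.50 in sham, a difference of -0.25 ± 0.07, and Tpi1, Aldoa and Pgk1 differed by -0.27 ± 0.08, -0.17 ± 0.05 and -0.25 ± 0.10. In these 4 genes both day 12 samples lay below all sham samples. The citric acid cycle list had a median of -0.10 over 25 tested, with 6 lower, led by Suclg1 (-0.27 ± 0.07) and Fh1 (-0.22 ± 0.07). Respiratory complex I had a median of -0.11 over 35 tested with 5 lower, complexes II to V -0.09 over 40 tested with 5 lower, and fatty acid genes -0.09 over 31 tested with 4 lower and 1 higher, Angptl4 (0.80 ± 0.30).

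These small shifts were uneven between the replicates. The complex I median was 0.01 in replicate 1 and -0.23 in replicate 2, and that of the proteasome subunits was -0.05 and -0.29. Over all 31 proteasome subunits the median was -0.16, with 7 lower, led by Psmb6, which had 9.41 and 9.53 at day 12, against 9.76, 9.87 and 9.84 in sham. Without replicate 2, 1 subunit was lower at an unadjusted p under 0.05, where 182 of all genes were, and without replicate 1, 14 were, where 1254 of all genes were. In the same 2 fits the glycolysis list had 0 and 11 lower genes, the citric acid cycle list 2 and 7, complex I 1 and 17, complexes II to V 0 and 15, and the fatty acid list 0 and 8. The sarcomere and Z-disc list had a median of -0.10 in each replicate, with 12 of 33 genes below all sham samples (11.2% of all genes were) and 5 lower at an unadjusted p under 0.05 (4.62% of all genes). With the marker score, 2 of the 33 were lower at an unadjusted p under 0.05, as were 481 of all genes. With the day 1 sham samples alone, 2 were lower, as were 384 of all genes. Pdlim5, a Z-disc scaffold, had 10.70 and 10.82 at day 12, against 11.04, 10.97 and 10.95 in sham, and Tnnc1, cardiac troponin C, had 11.76 and 11.74, against 11.88, 11.85 and 11.93. Neither gene overlapped with sham. The medians of these lists at days 5 and 26, minus the same sham samples, were also below 0. Glycolysis had -0.12 and -0.10, the citric acid cycle -0.11 and -0.07 and complex I -0.11 and -0.06. Complexes II to V had -0.08 and -0.07 and fatty acid genes -0.07 and -0.04. The sarcomere list had -0.11 and -0.06 and the proteasome -0.19 and -0.17. At days 1 and 3 the medians of these lists ran from -0.09 to 0.03.

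Of 26 tested cytosolic heat shock genes the median was -0.07, with 4 lower and none higher at an unadjusted limma p under 0.05 (4.62% of all genes were lower). The 4 were the small heat shock genes Hspb3, Hspb7, Hspb6 and Hspb2, and 3 further small heat shock genes of the list, Hspb1, Hspb8 and Cryab, named after their values were seen, overlapped with sham. Hspb3 had 6.55 and 5.91 at day 12, against 7.26, 6.83 and 7.13 in sham, and Hspb7, Hspb6 and Hspb2 differed by -0.22 ± 0.06, -0.20 ± 0.07 and -0.34 ± 0.15. In these 4 both day 12 samples lay below sham. Cytosolic ribosomal protein genes had a median of 0.01 over 34 tested, with 2 higher and 1 lower.

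Of 32 listed p53 targets, 25 were tested. Those not tested included Cdkn1a, Bax and Gdf15, which had no matching probe set with a single symbol, and Pmaip1 and Ddb2, which were below the filter. Of the 25 tested, 1 was higher and 1 lower at an unadjusted limma p under 0.05, near the shares of all genes (3.39% higher and 4.62% lower), and the median was 0.11. Ccng1, cyclin G1, had 11.59 and 11.54 at day 12, against 11.73, 11.67 and 11.74 in sham, a difference of -0.15 ± 0.04. Trp53inp1 had 7.27 and 8.12 at day 12, against 7.04, 7.13 and 7.11 in sham, and was high mainly in replicate 2. Phlda3, an inhibitor of AKT, had 6.63 and 6.78 at day 12, against 6.52, 6.42 and 6.45 in sham, a difference of 0.24 ± 0.12 (limma adjusted p = 0.616), and Mdm2 differed by -0.03 ± 0.11. None of 23 cell cycle genes and none of 26 DNA repair genes reached an unadjusted limma p under 0.05, with medians of -0.02 and -0.07.

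Oxidative stress defence held 5 lower genes and no higher ones among 30 tested at an unadjusted limma p under 0.05 (4.62% of all genes were lower), with a median of -0.06. Gsta4, which conjugates lipid peroxidation products to glutathione, had 9.42 and 9.23 at day 12, against 9.69, 9.57 and 9.89 in sham, a difference of -0.39 ± 0.10. Gclm, a subunit of the enzyme that limits glutathione synthesis, had 7.21 and 7.47 at day 12, against 7.63, 7.77 and 7.72 in sham. Neither overlapped. The mitochondrial enzymes Sod2 and Prdx3 differed by -0.18 ± 0.07 and -0.20 ± 0.08, with overlap.

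Lcn2, a secreted iron-siderophore binding protein of the acute phase and of neutrophils, was lower at day 12. It had 7.08 and 7.97 at day 12, against 8.46, 8.96 and 8.54 in sham, a difference of -1.13 ± 0.26 or 2.19-fold lower (limma adjusted p = 0.491). Both day 12 samples lay below all sham samples, and replicate 2, which carried more signal of other cells, was the higher one. Against the other proton days the difference was -1.04 ± 0.22, and with the marker score of other heart cells in the fit it was -1.12 ± 0.14 (limma adjusted p = 0.0258). That alternative was the only one of 27 in which Lcn2 passed against the other days, and its adjusted p over them ran from 0.0258 to 1.00. At day 1 after protons Lcn2 had 9.39 and 9.63, and at day 26 7.44 and 7.86. Stc1, the secreted glycoprotein stanniocalcin, was also low on both counts, with 4.76 and 4.90 at day 12, against 5.40, 5.49 and 5.38 in sham and 5.15 to 5.85 over the other proton days.

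A pair of genes was lower at day 12 than the mean of the other proton days, with values that overlapped theirs. Neither passed the adjusted threshold. Rnf144b, a ubiquitin ligase, had 7.55 and 7.70 at day 12 and 7.59 to 8.50 over the other proton days, a difference of -0.56 ± 0.11, while in sham it had 7.85, 8.14 and 7.60 and overlapped. Pde7a, a cyclic AMP phosphodiesterase, had 8.03 and 8.08 at day 12, against 7.80, 7.77 and 7.71 in sham. It stood above sham in both replicates (0.29 ± 0.09) and below the mean of the other proton days (-0.28 ± 0.08), which ran from 7.85 to 8.73. Glucocorticoid-induced genes, of which 22 of 24 were tested, had a median of 0.08 against sham, with 1 higher and 2 lower at an unadjusted limma p under 0.05 (3.39% and 4.62% of all genes). Against the other proton days, 5 of them were lower (1.45% of all genes).

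The day 12 replicates differed in the markers of heart cells other than cardiomyocytes. Replicate 2 was above replicate 1 by more than 1 log2 unit in 436 genes, and the reverse held in 12. Endothelial markers (19 of 20 tested) had a mean log2 signal of 7.38 and 8.04 in replicates 1 and 2, against 7.15 to 7.53 in sham. Fibroblast markers (18 of 20 tested) had 6.90 and 8.00, against 6.88 to 7.17 in sham, and macrophage and monocyte markers (23 of 25 tested) had 6.71 and 7.85, against 6.52 to 7.02. Mesothelial and epicardial markers (13 of 13 tested) had 6.59 and 7.97, against 5.83 to 6.93. Replicate 1 thus lay within the sham range and replicate 2 above it in each of the 4 lists. A marker score, the mean deviation over the endothelial, fibroblast and macrophage lists, was -0.28 in replicate 1 and 0.69 in replicate 2, against -0.23, -0.03 and -0.37 in sham.

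Genes of high signal in these lists showed the same gap. Lyz2, the lysozyme of macrophages and granulocytes, had 9.62 and 10.89 at day 12, against 9.63, 9.998 and 8.95 in sham. Dpt, a dermatopontin of fibroblasts, had 8.63 and 9.70 at day 12, against 8.54, 8.73 and 8.30 in sham. The mesothelial uroplakin Upk3b had 8.60 and 10.16 at day 12, against 8.60, 9.07 and 7.88 in sham. Emcn, an endothelial sialomucin, had 8.46 and 9.61 at day 12, against 8.46, 8.67 and 8.39 in sham. In all 4 replicate 1 overlapped with sham and replicate 2 exceeded every sham sample.

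Inflammation and matrix lists were high in replicate 2 and near sham in replicate 1. For complement and MHC class II genes the median was 0.06 in replicate 1 and 1.34 in replicate 2, and for extracellular matrix genes it was -0.04 and 0.85. The medians were -0.00 and 0.56 for interferon-stimulated genes, 0.07 and 0.51 for NF-kB cytokines, -0.07 and 0.57 for immediate early genes and -0.16 and 0.55 for acute phase genes. Without replicate 2, none of 20 complement and MHC class II genes and none of 43 matrix genes was higher at an unadjusted limma p under 0.05. Without replicate 1, 16 and 29 were, where 1368 of all 12102 genes were higher. With the marker score as a covariate, the medians were 0.12 for complement and MHC class II, 0.03 for matrix and 0.10 for interferon-stimulated genes. The score shared members with the complement list, such as C1qa, C1qb and C1qc, and with the matrix list, such as Col1a1, Col3a1 and Dcn. Smaller medians of these lists were thus partly built in.

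Single members showed the gap too. Cd74, the invariant chain of MHC class II, had 8.46 and 9.66 at day 12, against 8.35, 8.25 and 7.68 in sham, and Fmod, the matrix proteoglycan fibromodulin, had 6.83 and 8.08, against 6.32, 6.95 and 6.09. C1s1, a complement protease, had 6.04 and 7.60 at day 12, against 5.91, 6.23 and 5.21 in sham. Oasl2, an interferon-stimulated gene, had 7.49 and 8.89 at day 12, against 7.33, 7.40 and 6.97 in sham, and stood above sham in both. Nlrc5, the activator of MHC class I genes, had 7.49 and 7.55 at day 12, against 7.04, 7.15 and 7.18 in sham, on the brightest of its 19 probe sets, a difference of 0.40 ± 0.10 (limma adjusted p = 0.506). Its other probe sets disagreed, with differences from -0.52 to 0.48.

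With the marker score in the fit, the chaperone median was 0.26, with 13 of 25 genes higher at an unadjusted limma p under 0.05, and the clock repressor median was -0.28, with 5 of 12 lower. The small RNA median was 0.47, with 27 of 43 higher. Over all genes 461 were higher and 481 lower in that fit. Other lists came closer to 0: the isomerase median was 0.05 with 4 of 18 higher, complex I had 2 of 35 lower, the sarcomere list 2 of 33 and the proteasome 3 of 31.

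**Figure D4:**
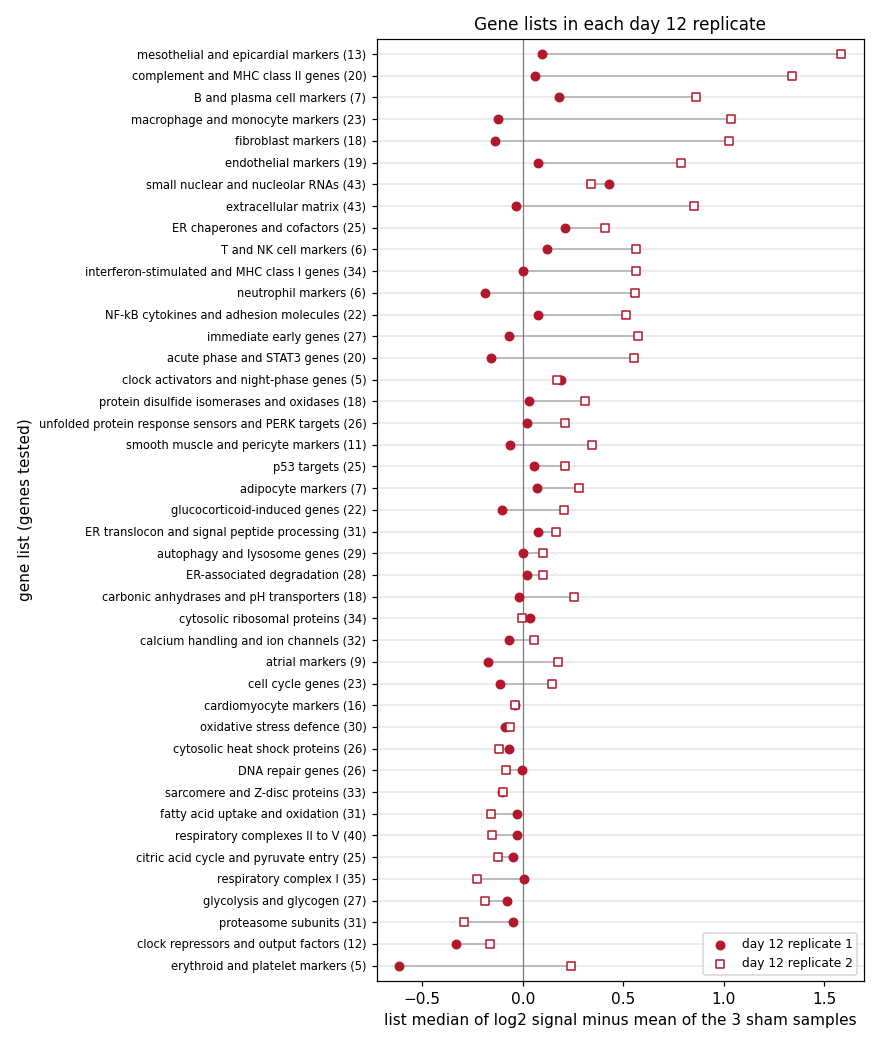
Each row is a gene list with at least 5 tested genes (number in brackets), and the horizontal axis is the list median of the log2 signal minus the mean of the 3 sham samples. Filled circles are day 12 replicate 1 and open squares day 12 replicate 2; the pair is wide apart for mesothelial markers (0.10 and 1.59) and close for small nuclear and nucleolar RNAs (0.43 and 0.34) and sarcomere genes (-0.10 in each).

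The 6 genes in which replicate 2 exceeded replicate 1 most were Reg3g, Cyp2f2, Bpifb1, Scgb3a1, Bpifa1 and Ltf. Reg3g, an antibacterial lectin, had 4.85 in replicate 1 and 9.45 in replicate 2, against 4.90, 7.22 and 4.20 in sham. Cyp2f2, a cytochrome P450 of club cells, had 6.03 and 10.61 at day 12, against 6.12, 8.08 and 5.33 in sham. Scgb3a1, a secretoglobin, had 7.28 and 10.997 at day 12, against 6.76, 9.49 and 5.58 in sham. Ltf, which encodes lactoferrin and was also in the neutrophil marker list, had 4.07 and 7.42 at day 12, against 3.98, 5.81 and 3.57 in sham. In each of the 6, sham replicate 2 stood above the other sham samples, and day 12 replicate 1 lay within the sham range. Over the other proton days Scgb3a1 ran from 7.22 to 10.79 and Reg3g from 5.02 to 9.20. The level of these genes therefore varied between arrays of 1 group, and its source was not tested.

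**Figure D5:**
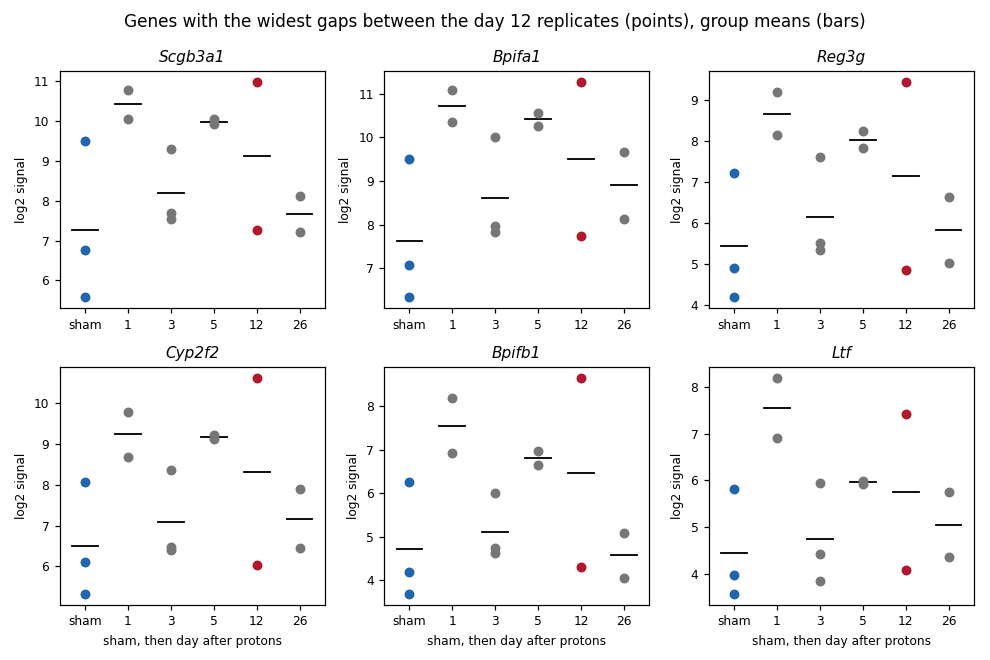
The log2 signal of the 6 genes with the widest gap between the day 12 replicates is plotted for every sample, with sham in blue at the left and then days 1, 3, 5, 12 (red) and 26 after protons. Points are samples and bars are group means; Scgb3a1 reads 7.28 and 10.997 at day 12 and 6.76, 9.49 and 5.58 in sham.

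In the other direction, the 6 genes in which replicate 1 exceeded replicate 2 most were Gm7982, Wasf3, Lad1, Olfr692, H3c4 and Rab39. On the brightest of its 7 probe sets Gm7982 had 5.88 and 4.37 at day 12, and Wasf3 had 5.95 and 4.67. In sham, Gm7982 had 5.32, 5.30 and 5.09, and Wasf3 had 5.40, 5.52 and 5.42. All 6 were below the filter level of 5.00 in replicate 2.

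Markers of heart load overlapped between the groups. Nppa, atrial natriuretic peptide, had 9.22 and 10.60 at day 12, against 10.20, 10.31 and 10.41 in sham. Nppb, its ventricular relative, had 11.41 and 11.25 at day 12, against 11.48, 11.48 and 11.21 in sham, and Myh7, the beta myosin heavy chain, had 6.66 and 7.28, against 6.66, 7.12 and 6.57. In each of the 3 genes the replicates straddled or overlapped the sham values.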

How the data were processed

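RNA of left-ventricular cardiomyocytes had been hybridised to Mouse Gene 1.0 ST arrays. The authors deposited log2 signals per probe set. MAS5 is named in the submitters' processing notes, and the background correction and normalization are not given in the sources used here. Values ran from 0.123 to 12.9, and array medians from 4.90 to 5.16. Arrays carry no read depth, and precision is limited by how many arrays there are. Of 34760 probe sets, 21640 had a single gene symbol, 1321 had several and 11799 had none. For each of 19937 genes the probe set with the highest mean over the 15 arrays was kept, and 12102 genes whose mean exceeded 5.00, the median of all probe sets, were tested. Symbols of 19854 genes matched RefSeq.

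Replicates 1 and 2 of proton day 5 differed by an SD of 0.0768, against 0.222 to 0.527 for the other pairs of arrays, and were averaged and counted as 1 sample. The 14 samples of 6 groups were fitted with limma 3.58.1 (lmFit, eBayes with a variance trend) in R 4.3.3, with Benjamini-Hochberg adjustment over the 12102 genes. The comparisons were day 12 minus sham and day 12 minus the mean of the other proton days. No replicate block was used. Over all groups, the deviations of same-numbered samples from their group means had a median correlation of -0.00633 over 31 pairs, with 10 above 0.1. In groups of 2 samples these deviations mirror each other. The pairs are therefore not independent, and their median cannot settle whether same-numbered samples deviated together. Between day 12 replicate 1 and sham replicate 1 the correlation was 0.35, so a shared deviation within the main comparison is not excluded. Alternatives changed the scaling, the filter, the variance model, the samples and a marker score of other heart cells. The fit was tested on simulated data. Tables and plots were made with Python 3.11.15, pandas 2.3.3, numpy 2.4.6 and matplotlib 3.10.9.

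Genes were named by a rule: the 10 with the smallest p in each direction whose day 12 samples both lay outside the sham range, up to 4 members of each list with the smallest p, the 5 in each direction against the other proton days, the 6 widest replicate gaps in each direction, the 3 highest markers of each cell type, and a set of individually chosen genes. The genes, lists and rule were chosen with earlier results of these data known. Promoter windows came from RefSeq (GRCm38.p6).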

Additional observations from a re-analysis of the deposited data

How the results depend on the processing

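Between day 12 and sham, limma called 0 genes at an adjusted p under 0.05 on the 14 samples. With all 15 arrays as separate samples it called 2, Car14 (-0.50) and Scarna13 (1.33), each at an adjusted p of 0.0496. With the marker score as a covariate it called 1, Lcn2 (-1.37, limma adjusted p = 0.0260). Leaving out 1 sample at a time gave 0 to 1: Tefm (-1.03, limma adjusted p = 0.0479) without day 12 replicate 1, and Scarna13 (1.56, limma adjusted p = 0.00213) without sham replicate 2. Over 28 alternatives the adjusted p of Scarna13 ran from 0.00213 to 0.784 and that of Car14 from 0.0496 to 0.784. At an unadjusted p under 0.05, 969 genes became 618 with only the groups compared in the fit. Leaving out 1 sample at a time gave 352 (without day 12 replicate 2) to 2622 (without day 12 replicate 1), with 643 without sham replicate 1. Against the other proton days, limma called 0 genes, 1 with the marker score (Lcn2, -1.12), and 0 to 1 on leaving out 1 sample (Mt2, -0.77, limma adjusted p = 0.00770, without day 12 replicate 2). The 239 genes at an unadjusted p under 0.05 became 445 with no filter, 134 with the filter at the 75th percentile, 92 with array weights and 473 with the marker score. Leaving out 1 sample gave 189 to 969, with 380 without day 3 replicate 3, 969 without day 12 replicate 1 and 424 without day 12 replicate 2. A fit with the replicate number as a block, which also kept all arrays separate and left out the sham day 3 sample, gave unadjusted counts of 858 against sham and 402 against the other proton days, with 0 adjusted calls in both. It changed those choices together, and the titles give replicate numbers without saying that they pair the samples. Tefm and Mt2 are named here after their values were seen. The cause of these shifts was not tested. The chaperone median stayed between 0.21 and 0.41 and the clock repressor median between -0.33 and -0.16. Of 821 alternative values of 30 named gene differences, none changed direction and 4 passed the threshold. All 30 were chosen for a small p in the same data, and those against sham also for lying outside the sham range. Leaving out 1 sample could not reverse the latter, so the constant direction is no test of their stability. Dim genes near the filter of 5.00, such as Igha, Ciart and Stc1, rest on signals close to background.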
